A study of Mus musculus with 36 samples.

Results

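The effect of losing the TET enzymes on gene expression was compared between mouse embryonic stem cells (ESCs) and the neural stem cells (NSCs) derived from them. All RNA-seq libraries of the series were taken, which are 10 of its 36 samples. They form 4 groups: wildtype (WT) ESCs with 3 libraries, ESCs with Tet1, Tet2 and Tet3 knocked out (triple knockout, TKO) with 2, WT NSCs with 3 and TKO NSCs with 2. All ESCs are male V6.5 cells of a mixed 129/C57BL/6 background, and the NSCs carry the genotype of the ESCs they came from. Each library has a line code in the labels, w1, w2 and w3 for WT and tkc2 and tkh7 for TKO, and each code occurs once among the ESCs and once among the NSCs. ESCs were preplated for 45 minutes, which takes away feeder cells, and then kept for 24 hours on gelatin with serum and LIF. NSCs were taken on day 6 of culture at passage 1. The knockout is present in the ESCs as well as in the NSCs, so that an effect in NSCs can date from the ESC stage, and 2 TKO lines are the whole of that arm.

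TET enzymes oxidize 5-methylcytosine in DNA, a first step in the removal of the methyl group, and are known to act at enhancers and promoters. In ESCs they are known to be largely dispensable for self-renewal, whereas differentiation of cells without them is known to be impaired. NSCs are neural progenitors that express factors such as Sox2 and Pax6 and can form neurons and glia. The question asked here is which genes respond to the loss of TET enzymes differently in the 2 cell types.

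Values are normalized counts, that is reads per gene divided by a size factor of the library, and ESCs and NSCs were scaled in separate tables. Genotypes were therefore compared only within a cell type. Where values of both cell types stand side by side, as for the summed markers, they have no common scale. The TKO effect is the mean log2(value + 1) of TKO minus that of WT, and the difference of effects is the effect in NSCs minus the effect in ESCs, and here each table's own scaling drops out. A difference of effects is called higher or lower where its adjusted p (limma, Benjamini-Hochberg over 15381 genes) was under 0.05, and higher means that the effect was more positive in NSCs. Unless stated otherwise, the call of a gene whose difference is printed held in each of the 31 alternative settings in which the gene was tested, which were 29 to 31. The libraries held 41.0 M to 49.1 M reads as recovered. Of the recovered counts of 1 to 20 per gene, 75.2% to 82.7% were even, and if both mates of a pair were counted, on which the labels and notes are silent, these are 20.5 M to 24.5 M pairs. Genes listed in only 1 table, 1655 for ESCs and 2390 for NSCs, have no difference of effects. Of the 2-cell-like list 0 of 18 genes were in both tables, and of the germline list 8 of 30.

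By the ESC and NSC markers alone, the ESCs and the WT NSCs matched their labels, and the TKO NSCs did so only in part. The summed normalized counts of 6 ESC markers, among them Pou5f1 and Nanog, were 150620 to 211180 in ESCs. In NSCs this sum was 589, 600 and 796 in WT against 4775 and 2310 in TKO. Those of 7 NSC markers, among them Nes, Pax6 and Sox1, were 108420 to 120430 in WT NSCs, 41015 and 49746 in TKO NSCs and 5209 to 7719 in ESCs. Markers of fibroblasts and feeder cells were also read in WT NSCs, with sums of 46846 to 59341, and are described with the mesenchymal genes. These are bulk samples, in which fewer cells of a type and less RNA per cell cannot be told apart.

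The transcripts of the targeted genes were examined first. Tet1, which lies on chromosome 10 from 62804570 to 62887469 (mm10), read 12237, 10599 and 9634 in WT ESCs against 4635 and 4966 in TKO ESCs. Its NSC values were 663, 717 and 901 in WT against 517 and 574 in TKO. Both TKO libraries lay below all WT libraries in each cell type. Tet1 fell by 1.17 (log2, SE 0.13) in ESCs and by 0.47 (SE 0.13) in NSCs, with a difference of effects of 0.70 (SE 0.18, adjusted p = 0.0142), a call lost in 5 of the 31 alternatives, among them without the tkh7 NSC library (highest adjusted p = 0.0782). Tet2, on chromosome 3 from 133463677 to 133545136, read 2893, 2438 and 2156 in WT ESCs against 1700 and 1661 in TKO ESCs. In NSCs Tet2 read 1276, 1295 and 1066 in WT against 1146 and 1555 in TKO, where the genotypes overlapped. Its difference of effects was 0.70 (SE 0.21, adjusted p = 0.0257), a call lost in 7 alternatives, among them without either TKO ESC library, the w3 NSC library or the tkh7 NSC library (highest adjusted p = 0.219). Tet3 fell by 1.23 in ESCs and by 0.73 in NSCs, and its difference of effects did not pass (0.50, SE 0.23, adjusted p = 0.143), although it did in 2 alternatives. The knocked-out alleles still give reads at these loci, and where within the genes these reads lie was not analysed here.

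Loss of TET enzymes had different effects in the 2 cell types for 3177 of 15381 genes (20.7%). It was higher in NSCs for 1669 genes (10.9%) and lower for 1508 (9.8%). With equal totals 1966 were higher and 1319 lower, but lower calls were the more numerous with every chromosome centred (1430 higher, 1583 lower) and without the genes of chromosomes 8 and 11 and distal chromosome 6 (1144 and 1351). The difference was at least 2-fold for 721 of the higher and 697 of the lower genes. Within ESCs, 3082 genes passed (20.0%), 1464 higher in TKO (9.52%) and 1618 lower (10.5%). Within NSCs, 5024 genes passed (32.7%), 2608 higher in TKO (17.0%) and 2416 lower (15.7%). Over all genes the SD of the effects was 0.60 in ESCs and 0.87 in NSCs on the log2 scale. Without the tkc2 NSC library the count of differing genes was 2092, and without both tkc2 libraries it was 2024. The higher genes then numbered 1006 and 1026, and the lower genes 998 without both tkc2 libraries. The ESC count was 1700 without the tkh7 ESC library, 1571 without both tkh7 libraries and 1705 without the genes of chromosomes 8 and 11 and of distal chromosome 6. The NSC count was 3270 without the tkc2 NSC library.

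The largest group of differing genes passed in NSCs alone. Of the 3177 genes, 1731 (54.5%) passed in NSCs only, 814 with a higher and 917 with a lower effect there. A further 719 (22.6%) passed in ESCs only, 350 passed in both with opposite signs, 190 (5.98%) passed in both with the same sign, and 187 (5.89%) passed in neither. Among the 190, the effect was larger in NSCs for 151 and larger in ESCs for 39. Over all genes tested, 3451 passed in NSCs only and 1509 in ESCs only. No difference of effects was called for 1720 and 790 of them, respectively. Genes passing in NSCs only thus outnumbered those passing in ESCs only among genes without a called difference as well. Of the 1573 genes that passed in both cell types, 1223 had the same sign, and for 1033 of these no difference of effects was called. The overlap of 1573 genes is 51.0% of the ESC calls and 31.3% of the NSC calls. Across genes the effects in ESCs and NSCs had a Pearson r of 0.158 and a Spearman rho of 0.196. The genes are not independent replicates, and the effects of one cell type share their libraries. The count of opposite signs was 226 without chromosomes 8 and 11 and distal 6, 206 without the tkh7 ESC library, 164 without both tkh7 libraries, 190 without both w2 libraries and 203 without both w3 libraries. The count in ESCs only was between 372 and 479 in the same cases. The count in NSCs only was 1107 without the tkc2 NSC library and 1020 without both tkc2 libraries, and that of the same sign was between 74 and 112 over all the cases named here.

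Most calls were of genes present in both cell types. Of the differing genes 2948 had a group mean of at least 50 in each cell type, which is 23.7% of the 12436 genes at that level. Another 166 were under 50 in both ESC groups, 45 in both NSC groups and 18 in all 4 groups.

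**Figure D1:**
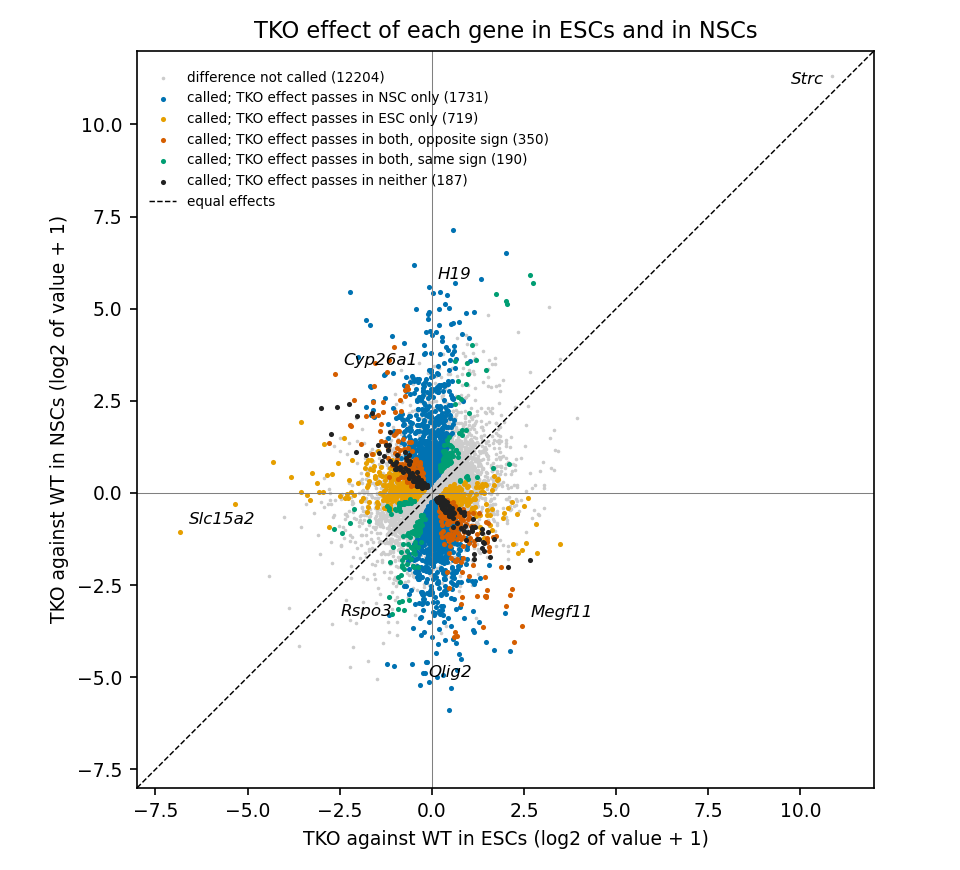
TKO effect in ESCs (x axis) against that in NSCs (y axis), both as log2 of value + 1, for 15381 genes; colours mark the 3177 genes whose effects differed, by the cell type in which the effect passed, grey the other genes, and the dashed line equal effects. The 1731 genes that passed in NSCs only form a vertical band, the 350 genes of opposite sign fill the upper left and lower right, and Strc lies near the dashed line at the upper right.

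Among genes with a group mean of at least 50 in each cell type, the largest higher effect in NSCs was that of Cyp26a1 (chromosome 19, 37697738 to 37701536), which encodes an enzyme that degrades retinoic acid. It read 166, 223 and 207 in WT ESCs against 48.2 and 20.2 in TKO ESCs. In NSCs it read 33.1, 34.6 and 36.9 in WT against 447 and 255 in TKO. The genotypes did not overlap in either cell type, and their order was reversed. Cyp26a1 fell by 2.62 (SE 0.41, adjusted p = 0.000592) in ESCs and rose by 3.24 (SE 0.41, adjusted p = 3.27e-05) in NSCs, a difference of 5.86 (SE 0.57, adjusted p = 1.00e-05). Its upstream sequence is shown because this gene heads both the higher genes present in both cell types and those of opposite sign. The 180 bases before its annotated span (chr19:37697558-37697737, plus strand, GRCm38.p6, from RefSeq) hold 18 CpG dinucleotides, written in capitals, and have a GC share of 65.6%.
Cyp26a1: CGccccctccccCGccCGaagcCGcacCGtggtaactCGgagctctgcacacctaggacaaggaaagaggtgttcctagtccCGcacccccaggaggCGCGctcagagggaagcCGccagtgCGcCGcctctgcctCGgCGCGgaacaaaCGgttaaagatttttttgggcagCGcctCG
A direct repeat of AGTTCA with a spacer of 5 bases, a form in which retinoic acid receptors are known to bind DNA, was searched on both strands of all promoter windows of 300 bases, a motif chosen after the values of Cyp26a1 were seen. The window of Cyp26a1 holds 1 match on the minus strand, which reads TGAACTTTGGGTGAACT on the plus strand (chr19:37697776-37697792) and ends 16 bases before the start site on which the window is built. It lies within the annotated gene span. Of 32851 windows 8 hold the motif (0.0244%). Only this exact spelling was searched, so the share holds for it alone and is not a test of the match in Cyp26a1.

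Of the genes that passed with opposite signs, 174 had the higher and 176 the lower effect in NSCs. Wdr86, a WD repeat protein, read 350, 507 and 509 in WT against 258 and 187 in TKO ESCs. The values in NSCs were 31.0, 19.5 and 25.3 in WT against 433 and 368 in TKO, a difference of effects of 4.98 (SE 0.42, adjusted p = 3.31e-06). Six2, a homeobox factor of kidney and craniofacial progenitors, read 32.4, 62.3 and 30.2 in WT against 18.9 and 15.4 in TKO ESCs. In NSCs Six2 read 256, 254 and 223 in WT against 4475 and 2013 in TKO (difference 4.78, SE 0.54, adjusted p = 3.62e-05). For both genes the TKO libraries lay below all WT libraries in ESCs and above them in NSCs. Crispld1 (5.07), the cell adhesion gene Cntn3 (4.64) and the chemokine gene Ccl7 (4.51) had the same pattern, with ESC levels of at most 86.5. Brachyury (T), the transcription factor of early mesoderm, fell by 1.60 in ESCs and rose by 2.10 in NSCs (difference 3.70, SE 0.56, adjusted p = 0.000364).

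The opposite order was largest for Lrtm2 and Megf11. Megf11 (chromosome 9, 64385617 to 64714179), a transmembrane protein with EGF repeats, read 21.0, 17.1 and 48.3 in WT ESCs against 152 and 139 in TKO ESCs. NSC values were 4901, 4548 and 5601 in WT against 352 and 483 in TKO. It rose by 2.44 in ESCs and fell by 3.60 in NSCs, so that the difference was -6.04 (SE 0.47, adjusted p = 1.68e-06). Lrtm2, a leucine-rich repeat membrane protein on distal chromosome 6, read 2.86, 16.1 and 26.2 in WT against 63.9 and 49.0 in TKO ESCs. Its NSC values were 484, 509 and 382 in WT against 18.4 and 39.0 in TKO (difference -6.26, SE 0.94, adjusted p = 0.000353). Prrt1 (-5.08), the neuregulin gene Nrg2 (-5.02) and the adhesion gene Sdk2 (-4.89) followed, all low in WT ESCs at no more than 60.1, and then Catip (-4.80). For Sdk2 the genotypes overlapped in ESCs, with 35.3, 6.03 and 4.03 in WT and 23.0 and 92.3 in TKO. At a high level in both cell types, Sox2, a factor shared by ESCs and NSCs, read 17003, 18050 and 18368 in WT against 21938 and 21792 in TKO ESCs. In NSCs Sox2 read 15087, 14463 and 16470 in WT against 6629 and 8555 in TKO. Sox2 rose by 0.30 in ESCs (adjusted p = 0.0353) and fell by 1.02 in NSCs, a difference of -1.32 (SE 0.13, adjusted p = 1.02e-05).

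Among the 23 tested genes of naive and core pluripotency, the effect was higher in NSCs for 14 and lower for 3, and the list's median difference was 1.54 (2.36 without the tkh7 NSC library), beside 0.04 over all genes tested. Within ESCs 3 rose and 1 fell, and within NSCs 17 rose and 2 fell. Pou5f1, the central pluripotency factor, read 45520, 54120 and 60415 in WT against 65567 and 54682 in TKO ESCs. In NSCs the values were 280, 320 and 422 in WT against 3044 and 1650 in TKO, a difference of 2.56 (SE 0.30, adjusted p = 4.77e-05). The RNA-binding protein gene Lin28a (3.41, adjusted p = 6.24e-07), the TGF-beta family ligand gene Gdf3 (5.07, adjusted p = 0.000294) and Sall4 (3.17, adjusted p = 1.94e-07) likewise differed with no call in ESCs. Dppa2 had 0 reads in the 3 WT NSC libraries and was at 56.0 and 33.2 in TKO NSCs, against 3812 to 5058 in ESCs. The 3 members with a lower effect in NSCs were Sox2, Klf4 (-0.65) and Klf5 (-0.57), and the call of Klf5 was lost in 13 alternatives. The methyltransferase gene Dnmt3b read 485, 491 and 635 in WT against 3515 and 2113 in TKO NSCs and did not pass in ESCs (adjusted p = 0.774; difference 2.44, SE 0.23, adjusted p = 6.53e-06). Dnmt3l, its cofactor, differed by 4.24 (adjusted p = 3.19e-07). The tkc2 NSC library was above the tkh7 NSC library for Pou5f1, Lin28a, Gdf3, Sall4, Dppa2, Dnmt3b and Dnmt3l, as for the summed ESC markers, and the part of remaining ESC-like cells in these values was not tested.

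Of 22 tested genes of neural stem cells and radial glia, 11 had a lower effect in NSCs and 0 a higher one, with a median difference of -1.10. Within NSCs 17 fell and 1 rose, and within ESCs 4 fell and 4 rose. Pax6, a transcription factor of cortical and other neural progenitors, read 89.7, 96.5 and 84.6 in WT against 94.3 and 99.0 in TKO ESCs. Its values in NSCs were 2825, 2575 and 2840 in WT against 234 and 78.1 in TKO, a difference of -4.43 (SE 0.47, adjusted p = 2.14e-05). The glutamate transporter gene Slc1a3 (-2.19, adjusted p = 1.34e-06), and the RNA-binding protein gene Msi1 (-1.19, adjusted p = 6.51e-05) also fell in NSCs with no call in ESCs. Vim, the filament vimentin, rose by 0.28 in ESCs and fell by 0.87 in NSCs (-1.15, adjusted p = 2.31e-06). Without the tkc2 NSC library 7 of the 22 were lower and 0 higher. Nes, the intermediate filament nestin, fell in both cell types, by 0.66 in ESCs and 1.09 in NSCs, and its difference of -0.43 (SE 0.12, adjusted p = 0.0244) was lost in 6 alternatives, among them without the tkc2 NSC, the tkh7 ESC or the w1 NSC library (highest adjusted p = 0.145).

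Of the astroglial list 46.15% of the tested genes were called, all of them lower. Of the oligodendrocyte list 22.2% were called, near the 20.7% over all genes. Of 13 tested astroglial genes 6 were lower and 0 higher (median -1.18; 7 and 1 without the tkc2 ESC library), among them Clu (-4.50, adjusted p = 1.35e-08), the nuclear factor gene Nfix (-2.13) and the aldolase gene Aldoc (-1.76). Clu, which encodes clusterin, read 11916, 10365 and 10056 in WT NSCs against 830 and 613 in TKO NSCs, while in ESCs it rose by 0.59. Of 9 oligodendrocyte genes 2 were lower and 0 higher, with a median of -0.13 that was 0.22 without the tkc2 NSC, 0.096 without the tkh7 ESC and 0.15 without the w2 ESC library. Summed counts of the 4 oligodendrocyte markers listed were 898 to 1053 in WT and 1165 and 1216 in TKO NSCs. The 2 lower genes were Olig2 (-4.89, SE 0.46, adjusted p = 7.04e-06) and Olig1 (-2.38), factors needed for oligodendrocyte and motor neuron precursors. Olig2 read 814, 1115 and 1464 in WT NSCs against 45.9 and 17.6 in TKO NSCs, and its ESC values were 535 to 614 (WT) and 489 and 414 (TKO), where the effect did not pass (adjusted p = 0.527). Of the astroglial list, 13 of 20 genes were in both tables. Folr1, a folate receptor, read 1005, 1086 and 1248 in WT against 1622 and 1142 in TKO ESCs. Across NSCs it read 2409, 2229 and 1663 in WT against 58.8 and 77.1 in TKO (difference -5.22, SE 0.27, adjusted p = 4.19e-08), so that the genotypes overlapped in ESCs and lay far apart in NSCs.

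**Figure D2:**
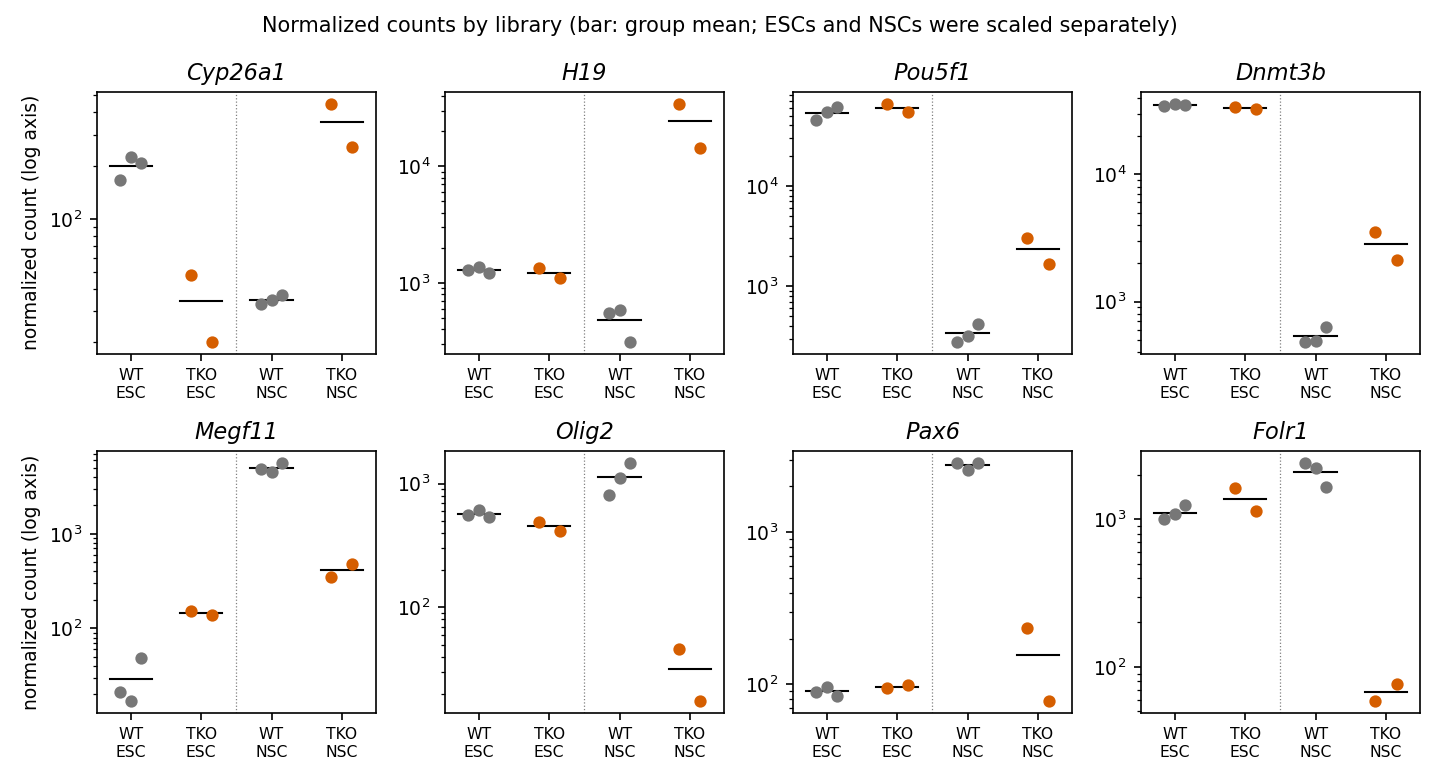
Normalized counts (log axis) of 8 genes in each library, WT in grey and TKO in orange, with the group mean as a bar and the separately scaled ESC and NSC tables on either side of the dotted line. Cyp26a1 and Megf11 change order between the cell types, H19, Pou5f1 and Dnmt3b are raised in TKO NSCs alone, and Olig2, Pax6 and Folr1 are lowered in TKO NSCs alone.

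Patterning genes were listed by region, and the regions were not tested against each other. Of 6 tested forebrain genes 1 had a higher and 3 a lower effect in NSCs, the lower ones being Otx1 (-4.30), Dmrta2 (-4.07) and Otx2 (-1.39). The call of Otx1 was lost without both tkh7 libraries (adjusted p = 0.0636), and that of Dmrta2 in 10 alternatives, among them without either TKO NSC library (highest adjusted p = 0.124). Of the forebrain list 6 of 17 genes were in both tables. Of 14 midbrain, hindbrain and spinal genes 4 were higher, among them Cdx2 (4.98), Egr2 (2.18) and Irx3 (1.09), and Fgf17 was lower (-3.07). The higher count was 2 without the tkc2 NSC, w3 ESC or w3 NSC library and 1 without the tkh7 NSC or tkh7 ESC library. The calls of Cdx2 (highest adjusted p = 0.164) and Irx3 (0.21) were lost in 7 and 15 alternatives, both of them without the tkh7 ESC and without the tkh7 NSC library, and Irx3 also with the line as a block. Of 14 dorsoventral and Hedgehog genes 4 were lower, among them Msx1 (-4.65), Lmx1a (-4.49) and Gli3 (-0.92, lost without both tkh7 libraries at an adjusted p of 0.0597), and Foxa2 was higher (2.59). Msx1, a homeobox gene of dorsal midline tissue, read 1076, 1232 and 907 in WT against 31.2 and 39.0 in TKO NSCs. Of 17 proneural and neuronal genes 7 were higher and 1 lower (median 0.64), with 3 higher without the tkc2 ESC and 4 without the w1 NSC library. The neurofilament genes Nefm (3.57, adjusted p = 3.41e-07) and Nefl (3.52, adjusted p = 3.80e-06) led the higher ones and fell in ESCs while they rose in NSCs. Within NSCs 5 of the 17 rose and 1 fell, and within ESCs 6 fell.

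Lists of neural crest, epithelial and mesenchymal genes had more higher than lower calls. Of 10 neural crest and epithelial-mesenchymal transition genes 6 were higher and 0 lower (median 1.40), among them the neurotrophin receptor gene Ngfr (3.12), the crest factor gene Foxd3 (3.05), Ets1 (1.92) and Twist1 (1.51). Of 17 trophoblast and epithelial genes 7 were higher and 1 lower (median 1.53). The lower one was Tfap2c, with a difference between -2.17 and -1.945 over the alternatives. The higher count was 4 without the tkh7 ESC library, and without the tkc2 NSC library 5 were higher and 2 lower (median 0.88). Cdh1, the epithelial cadherin, read 305, 369 and 355 in WT against 4667 and 1852 in TKO NSCs (difference 3.44, SE 0.35, adjusted p = 1.56e-05), and the keratin gene Krt8 fell in ESCs and rose in NSCs (difference 3.19, adjusted p = 7.63e-06). Of 16 fibroblast and mesenchyme genes 8 were higher and 0 lower (median 0.78). Without the tkc2 NSC library 5 were higher (median 0.35), and without the w1 or the w3 NSC library 5 were as well. Col3a1, a fibrillar collagen, read 27187, 30033 and 24257 in WT against 97558 and 83682 in TKO NSCs (difference 1.89, SE 0.23, adjusted p = 6.29e-05), and Col1a2 followed (1.48, adjusted p = 0.000705). Col1a1, of the same family, was not called (-0.46, adjusted p = 0.285). Summed counts of 7 fibroblast and feeder markers were 46846 to 59341 in WT NSCs, 142120 and 120910 in TKO NSCs, and 5443 to 8908 in ESCs. None of these markers was at 0 in any library, and the part of such cells in the result was not tested.

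Of 13 tested mesoderm genes 4 were higher and 4 lower. The muscle actin gene Actc1 (4.48) and T (3.70) led the higher ones, and the smooth muscle actin gene Acta2 (-3.07) and the vascular receptor gene Kdr (-2.86) the lower ones. Acta2 read 82198, 104370 and 77747 in WT against 10756 and 6754 in TKO NSCs, while its ESC libraries overlapped (WT 1123 to 1435, TKO 1448 and 765). Of 10 endoderm genes 4 were higher, Cer1 (5.50), Gata6 (3.59), Foxa2 (2.59) and Hhex (2.21), and Cxcr4 (-1.19) and Lama1 (-0.99) were lower. The call of Gata6 was lost in 4 alternatives, among them without the tkc2 ESC or the tkc2 NSC library (highest adjusted p = 0.209). Summed counts of the 4 mesoderm markers listed were 729 to 869 in WT against 4443 and 2919 in TKO NSCs, and 858 to 1227 in WT against 698 and 237 in TKO ESCs. Those of 3 endoderm markers were 81.6 to 141 in WT against 419 and 234 in TKO NSCs, and those of 6 epithelial markers 2100 to 2552 and 4695 and 3023. The part of such cells in these results was not tested.

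Signalling genes were described by pathway. Wnt ligands signal through beta-catenin and induce target genes such as Axin2, Lef1 and Notum, the last of which limits the pathway. Of 26 tested Wnt genes 12 were lower and 4 higher (median -0.90), and within NSCs 15 fell and 3 rose. The ligand gene Wnt7b read 8089, 8211 and 8974 in WT against 255 and 480.1 in TKO NSCs (difference -4.45, SE 0.28, adjusted p = 2.33e-07). Among targets, Notum fell in NSCs and rose in ESCs (-4.55, adjusted p = 2.34e-07), as did Lef1 (-1.93, adjusted p = 8.55e-05), and Axin2 fell in NSCs only (-1.52, adjusted p = 6.48e-06). The inhibitor genes Dkk1 (3.97) and Frzb (4.26) and the ligand gene Wnt8a (3.84) were higher. The call of Dkk1 was lost without both tkh7 libraries (adjusted p = 0.0699) and that of Frzb in 3 alternatives, among them without both w2 or both w3 libraries (highest adjusted p = 0.0685). Sp5, also a target, fell in both cell types, by 2.45 in ESCs and 1.08 in NSCs (difference 1.37, adjusted p = 0.00173).

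FGF genes had 10 lower and 6 higher effects in NSCs among 22 tested (median -0.39). The receptor gene Fgfr1 (-0.60) was lower, as were the ligand genes Fgf17 (-3.07) and Fgf18 (-2.91) and the feedback inhibitor gene Spry1 (-0.93). Fgf5, a ligand of the primed epiblast, fell by 1.41 in ESCs and rose by 1.67 in NSCs (difference 3.08, adjusted p = 0.000592), and Fgf4 was also higher (2.43). Fgf8 fell by 2.66 in ESCs and by 0.97 in NSCs, a larger fall in ESCs (difference 1.69, adjusted p = 0.00875, and 0.0541 without both w2 libraries). Of 23 Nodal and BMP genes 9 were higher and 5 lower (median 0.72). The median was 0.32 without the tkh7 ESC library, and the lower count was 3 without the tkc2 NSC, tkc2 ESC or w1 NSC library. The Nodal inhibitor genes Lefty1 (2.69) and Cer1 were higher, and so was Nodal itself (1.86), a call lost without the tkc2 NSC library and without both tkc2 libraries (highest adjusted p = 0.0536). The BMP ligand genes Bmp6 and Bmp7 (-1.98) and the inhibitory Smad gene Smad6 (-1.50) were lower. Bmp6 read 2762, 2170 and 2348 in WT against 76.2 and 60.5 in TKO NSCs, and 34.2 to 78.5 in all ESC libraries (difference -5.06, SE 0.49, adjusted p = 9.74e-06). Of 18 Notch genes 2 were higher and 2 lower (4 and 1 without the w3 NSC library), a share of 22.2%, near the 20.7% over all genes. Among the receptor genes Notch2 was lower (-1.44) and Notch3 higher (0.71).

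**Figure D3:**
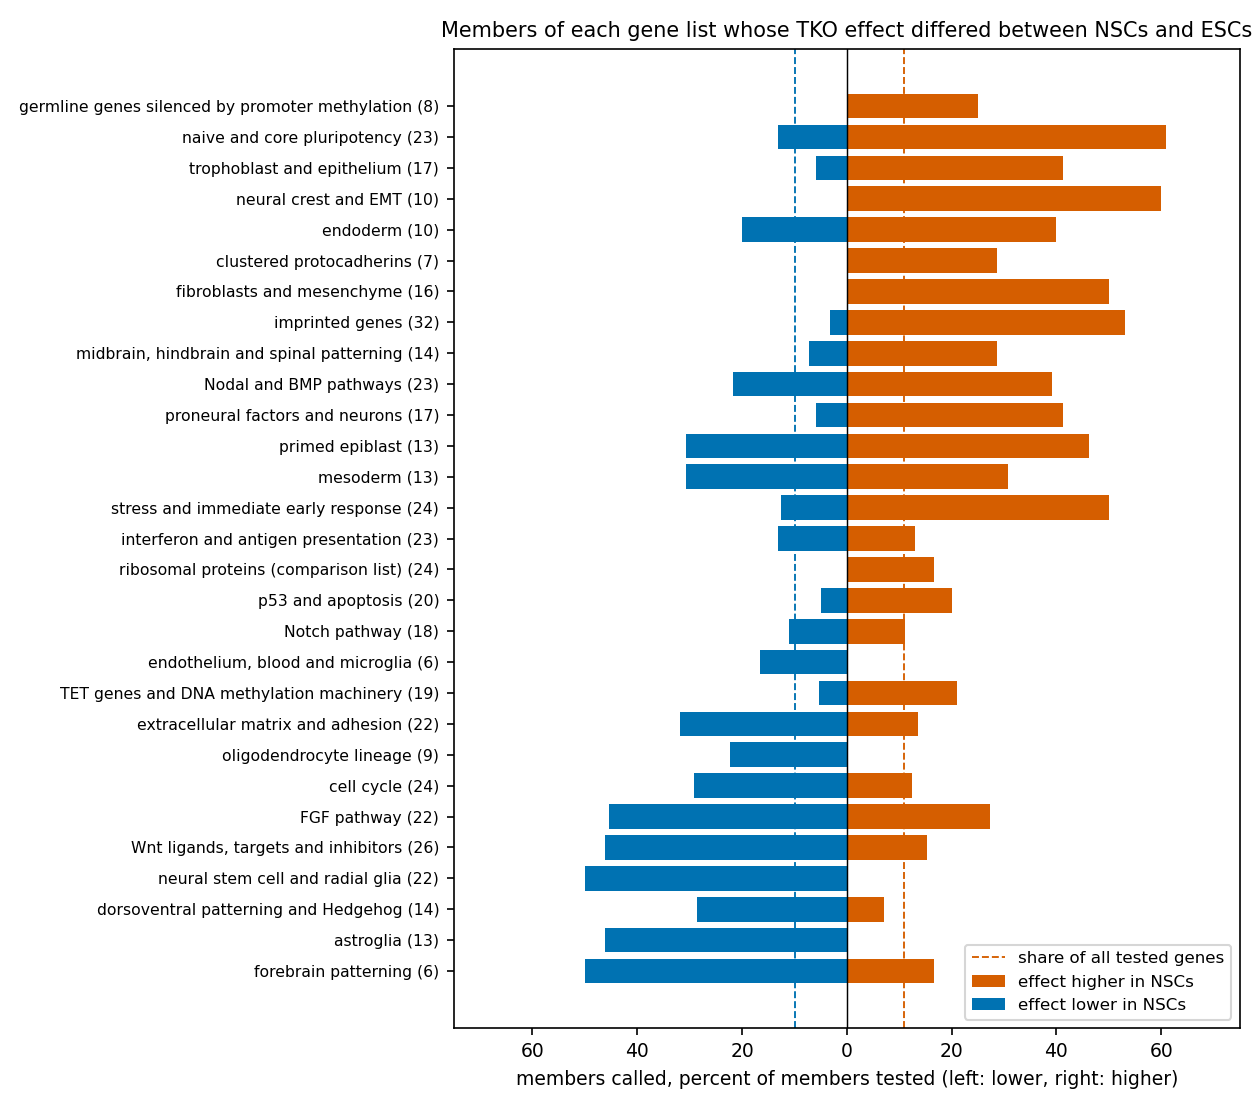
Members of each gene list called for the difference of effects, as percent of the members tested (numbers in brackets), with higher effects in NSCs to the right in orange and lower ones to the left in blue; dashed lines give the 10.9% and 9.8% of all genes tested. Lists are ordered by their median difference; pluripotency (14 of 23 higher, 3 lower) lies near the top and neural stem cell and radial glia (0 of 22 higher, 11 lower) near the bottom.

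Several differing genes passed in ESCs and not in NSCs. Slc15a2, a peptide transporter, read 365, 348 and 329 in WT ESCs against 8.38 and 0 in TKO ESCs. Among NSCs it read 276, 200.3 and 279 in WT against 120.3 and 116 in TKO, where both TKO libraries were lower but the effect did not pass (-1.07, adjusted p = 0.232). Its difference of effects was 5.76 (SE 0.91, adjusted p = 0.000520). The 4 groups share a single estimate of the spread, so the TKO ESC values of 8.38 and 0 also enter the test in NSCs. Cer1, which encodes a secreted antagonist of Nodal, read 56.3, 90.5 and 95.6 in WT against 14.7 and 1.92 in TKO ESCs, and 8.66 to 27.2 in WT against 132 and 30.3 in TKO NSCs (adjusted p = 0.0808 in NSCs). Gad1, an enzyme of GABA synthesis, fell by 1.82 in ESCs alone (difference 2.50, adjusted p = 0.000374). The endoderm and floor plate factor gene Foxa2 fell by 2.24 in ESCs alone, from 292 to 340 in WT to 62.9 and 71.1 in TKO. Frzb also passed in ESCs only.

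Of 24 tested stress and immediate early genes, 12 had a higher and 3 a lower effect in NSCs (median 0.46). In ESCs 14 fell and 0 rose, and in NSCs 9 rose and 8 fell. Atf3, an early stress factor, read 616, 551 and 719 in WT against 362 and 244 in TKO ESCs, and its NSC values were 149, 141 and 142 (WT) and 274 and 217 (TKO; difference 1.82, SE 0.32, adjusted p = 0.00114). Trib3 (2.70) and Chac1 (2.58), genes of the amino acid and endoplasmic reticulum stress response, followed. Of the 12 higher genes Ier2, Junb, Jund and Hmox1 lie on chromosome 8, whose genes shifted as a whole (described with the chromosomes). With each chromosome centred 10 genes were higher and 3 lower (median 0.30), and Junb (adjusted p = 0.0576) and Jund (0.295) were no longer called, and Jund was lost without both tkh7 libraries as well.

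Imprinted genes, expressed from 1 parental allele, had 17 higher and 1 lower effects among 32 tested (median 0.76), with 11 higher without the tkc2 NSC or the w1 NSC library and 12 without the tkh7 NSC library. H19, a noncoding RNA of the Igf2 locus (chromosome 7, 142575530 to 142578146), read 1302, 1355 and 1206 in WT against 1343 and 1105 in TKO ESCs. In the NSC libraries it read 546, 580.3 and 313 in WT against 34432 and 14479 in TKO (difference 5.67, SE 0.41, adjusted p = 8.30e-07). Both TKO NSC libraries lay far above every WT NSC library, and the genotypes overlapped in ESCs. Magel2 (3.37), Peg10 (0.96) and, at the Dlk1 locus, Meg3 (1.32), Rian (1.32) and Mirg (1.61) were also higher. Igf2, the neighbour of H19, was higher by 1.24, a call lost in 12 alternatives (highest adjusted p = 0.384). Meg3, Rian and Mirg fell in ESCs and rose in NSCs. Plagl1 was the only lower member (-0.87), and its call was lost in 13 alternatives (highest adjusted p = 0.276). Of 8 tested germline genes known to be silenced by promoter methylation, 2 were higher, a share of 25% beside 20.7% over all genes. These were Cyct (4.52, a call lost without both tkc2 libraries) and Tex19.1 (lost with a pseudocount of 10, adjusted p = 0.314). Tex19.1 had 0 reads in the WT NSC libraries and was at 34.9 and 48.8 in TKO NSCs, and in ESCs it rose from 1152 to 1973 in WT to 3975 and 7104 in TKO.

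Cell cycle genes had 7 lower and 3 higher effects among 24 tested (median -0.21), and 4 and 2 without the tkc2 NSC library. Within NSCs 15 fell and 3 rose. Cyclin D1 (Ccnd1) fell by 0.83 in ESCs and by 2.23 in NSCs (difference -1.40, SE 0.10, adjusted p = 8.27e-07), and the inhibitor gene Cdkn2a was higher (1.36). Of 22 extracellular matrix and adhesion genes 7 were lower, led by the brain proteoglycan gene Bcan (-3.21), and 3 were higher. Of 23 interferon and antigen presentation genes 3 were higher and 3 lower, 6 and 2 with equal totals, and 2 and 4 with the chromosomes centred. In the main fit 26.1% of this list were called, beside 20.7% over all genes. The higher count was 1 without the tkh7, the w1 or the w3 NSC library. The class I genes H2-K1 (-1.30) and H2-D1 (-1.16) were lower and the immunoproteasome gene Psmb8 (2.93) higher, and the calls of the other 3, Tapbp, B2m and Ifitm1, were lost in 14, 18 and 16 alternatives (highest adjusted p = 0.225, 0.209 and 0.293). Of 20 p53 and apoptosis genes 4 were higher and 1 lower, of 13 primed epiblast genes 6 and 4, of 7 clustered protocadherins 2 and 0 (1 and 0 without the tkh7 NSC library), and of 19 genes of TET and DNA methylation machinery 4 and 1 (2 and 1 without it). The shares called in these lists were 25%, 76.9%, 28.6% and 26.3% in turn, beside 20.7% over all genes. The 24 ribosomal protein genes taken for comparison had 4 higher and 0 lower calls (median 0.17), of which Rpl13 on chromosome 8 and Rpl19 on chromosome 11 were not called with the chromosomes centred, and 0 were called without the tkc2 NSC library and 7 without the w1 ESC library. Of 6 endothelial, blood and microglial genes only Kdr was called, and 1 gene was called higher without any one of the WT NSC libraries.

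Chromosome 8 stood apart from the other chromosomes. The median difference of effects over its 785 tested genes was 0.39, and 286 of them were called higher and 44 lower (42.0% called, against 20.7% over all genes). Its genes made up 17.1% of all higher calls and 5.10% of genes tested. The median of its genes against the WT mean was -0.40 in the tkc2 and -0.42 in the tkh7 ESC library. In the NSC libraries of the same lines it was 0.00 and -0.04. The shift against WT of the same cell type was thus present in both TKO ESC libraries and in neither TKO NSC library. A deviation from the WT mean does not tell whether the TKO or the WT libraries moved. On chromosome 11 the median was 0.25 in the tkc2 and 0.52 in the tkh7 ESC library and 0.54 in both TKO NSC libraries. Its median difference of 0.18 was 0.04 without the tkc2 ESC library and was 0.31 without the tkh7 ESC library. Of the 1192 genes of chromosome 11, 190 were called higher and 80 lower. Distal chromosome 6, beyond 100 Mb, was shifted alike, by 0.54 and 0.48 in ESCs and by 0.52 and 0.53 in NSCs, with a median difference of 0.01. Chromosome 14 had a median difference of 0.12, with -0.11 and -0.10 in TKO ESCs and -0.02 in each TKO NSC library. On every other chromosome the median difference lay between -0.04 and 0.04. Without the genes of chromosomes 8 and 11 and distal 6, 2495 genes differed, and with every chromosome centred 3013 did. DNA copy number was not measured in these libraries, and its part in the shifts was not tested.

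**Figure D4:**
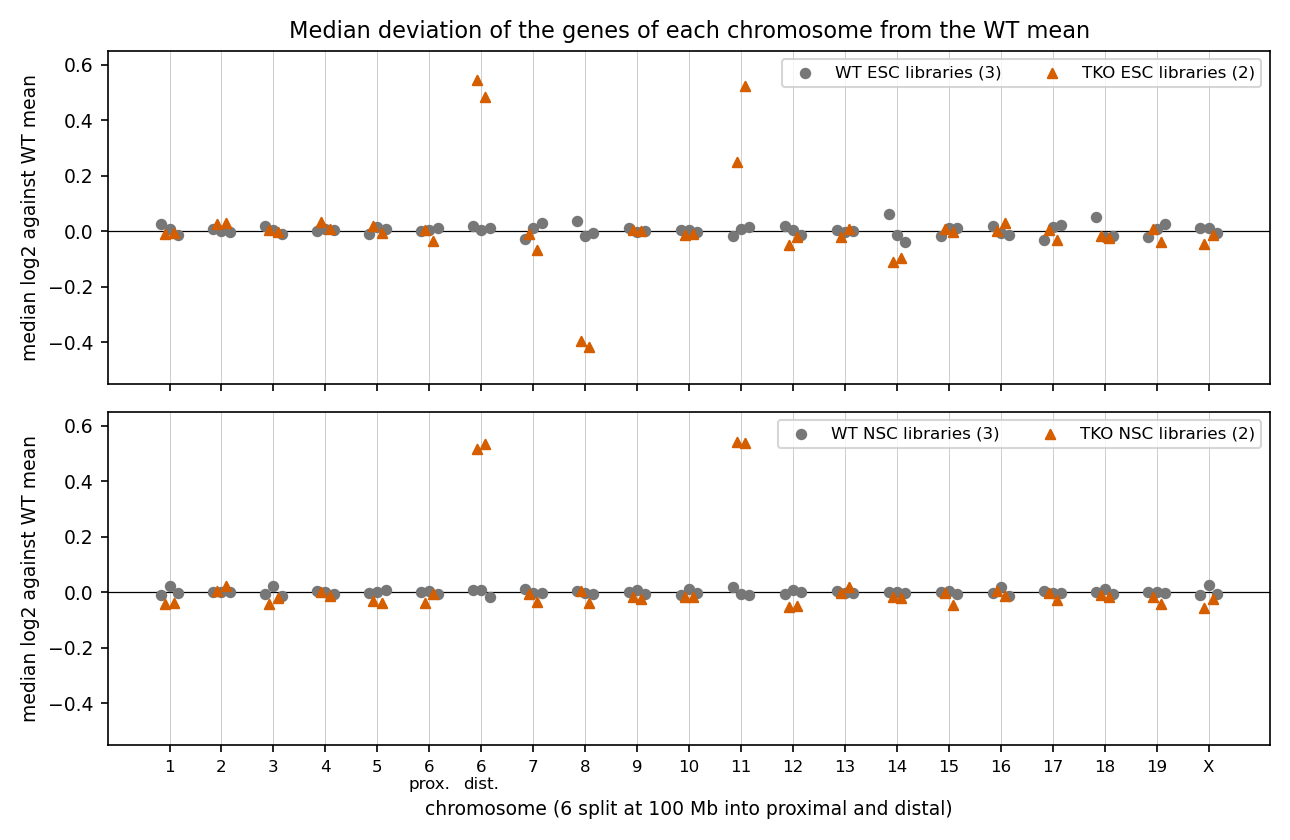
Median log2 deviation of the genes of each chromosome from the WT mean, for each ESC library (top) and NSC library (bottom), WT as grey circles and TKO as orange triangles. Chromosome 8 is at -0.40 and -0.42 in the TKO ESC libraries and near 0 in the TKO NSC libraries, chromosome 11 is at 0.25 and 0.52 in ESCs and 0.54 in NSCs, and distal chromosome 6 is raised in all 4 TKO libraries.

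Other genes passed in both cell types with the same sign and without a call for the difference. Of these, 79 changed at least 2-fold in both, 37 upward and 42 downward. Strc, which encodes the inner ear protein stereocilin, was at 0 to 4.02 in WT ESCs against 3732 and 2752 in TKO ESCs, and at 0 to 3.10 in WT NSCs against 3933 and 4233 in TKO NSCs. Its difference of effects was 0.45 with a 95% interval of -1.89 to 2.79. Xlr3b, an X-linked gene with near-identical copies, rose by 3.49 and 3.64, and Kdm5d, on the Y chromosome, by 2.35 and 4.36, and the difference of Kdm5d was called in 1 alternative. Downward, the cadherin gene Cdh22 fell by 3.86 in ESCs and 3.13 in NSCs, and the Wnt agonist gene Rspo3 by 2.71 and 3.55, with a difference called in 3 alternatives (lowest adjusted p = 0.00262). Their differences had 95% intervals of -0.59 to 2.06 and of -1.81 to 0.12, and that of Cdh22 was -1.46 (adjusted p = 0.0134) with a pseudocount of 10. The de novo methyltransferase gene Dnmt3a rose by 0.44 and 0.45 (95% interval of the difference -0.20 to 0.23). For Dnmt1, the maintenance enzyme, neither effect passed and the interval was -0.34 to 0.12.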

How the data were processed

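RNA was sequenced from 10 samples, ESCs and NSCs of 3 WT and 2 TKO lines, and no other sample was used. The deposited values are a signal that the authors made by dividing each gene's count by a library size factor, in 1 table for ESCs and 1 for NSCs. The submitters' processing notes name Trim Galore 0.6.5, STAR 2.7.3a, featureCounts, DESeq2 1.40.2 and mm10; whether counting used the strand is not stated there. Whole reads were recovered from steps of 0.918 to 1.08, with 100% of values whole within 1e-06, giving 41.0 M to 49.1 M reads per library. 0 columns of other samples were left unused.

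The 15381 genes in both tables were tested on log2(value + 1) with limma 3.58.1 (R 4.3.3) over all 10 libraries, with 4 groups and the NSC minus ESC contrast of TKO minus WT. Calls used Benjamini-Hochberg adjusted p under 0.05, and a mean of at least 10 removed 0 genes. edgeR 4.0.16 and DESeq2 1.42.0 on recovered reads were alternatives. Scripts were tested on simulated data. Positions (mm10) were found for 14612 genes (95.0%), 769 were unmatched. Promoter windows were found for 11150 genes (72.5%), so a comparison of promoters over called genes was void.

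Genes were named from among the largest called differences (present in both cell types, opposite in sign, and of any level) and genes changed alike. Further sources were the 2 largest called members of each list in each direction and 12 fixed genes. Not every gene of these groups is named, and some of those left out have larger differences than the genes named. Other list members were named after their values were seen. Genes and lists were chosen with earlier results of these data known. Line codes in the labels pair ESCs and NSCs of the same line. Same-line deviations from the group means correlated between -0.059 and 0.039 over 12522 genes. The labels call the lines independent, and p-values measure the spread between these libraries. Some members of the lists are counted but not reported by name here.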

Additional observations from a re-analysis of the deposited data

Results flagged for a closer look

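Effects of TET loss that differed between ESCs and NSCs by a test of the difference were the subject of the comparison. By limma's test with Benjamini-Hochberg adjustment, 3177 genes differed, and for 350 of them the effects passed in both cell types with opposite signs. The largest opposite differences with a higher effect in NSCs were those of Cyp26a1 (5.86), Crispld1 (5.07), Wdr86 (4.98), Six2 (4.78), Cntn3 (4.64) and Ccl7 (4.51). Those with a lower effect in NSCs were those of Lrtm2 (-6.26), Megf11 (-6.04), Prrt1 (-5.08), Nrg2 (-5.02), Sdk2 (-4.89) and Catip (-4.80), all on the log2 scale. None of these 12 calls of a difference was lost in the 29 to 31 alternatives in which each gene was tested. Whether both effects of each gene still passed with opposite signs there was not followed. For Sdk2 the genotypes overlapped in ESCs.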

How the results depend on the processing

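The count of 3177 differing genes ranged from 2495 to 3688 over the settings that left out no library, apart from 1418 where a difference of at least 1 (log2) was also required. It was 2930 with the line as a replicate block and 3096 with the line as a random block, and a fixed block gives no separate ESC or NSC effect. Leaving out libraries gave 2024 to 3308, and where 1 TKO library was left in a group it was assumed to vary like the other groups. Of the genes named or listed, 243 were called, 150 in every alternative in which they were tested (29 to 31), and 93 lost the call in at least 1. Higher genes ranged from 1006 to 1680 and lower from 998 to 1628 when libraries were left out. The ESC count was 2042 with chromosomes centred, 1705 without chromosomes 8 and 11 and distal 6, and 1571 to 2947 with libraries left out, and the NSC count 3270 to 5417. Genes passing in NSCs only ranged from 1020 to 1859, in ESCs only from 372 to 708 (437 without those chromosomes), with opposite signs from 164 to 369 (226), and with the same sign from 74 to 183 (92, and 100 with chromosomes centred). Genes low in ESCs numbered 0 with low set under 10 and 275 under 100, and those low in NSCs 0 and 83. The median of chromosome 8 was 0.45 with equal totals, 0.37 with edgeR's TMM and 0.38 to 0.42 with libraries left out, that of chromosome 11 0.042 to 0.32, and that of chromosome 14 0.084 with a mean of at least 50, 0.18 with equal totals and 0.070 to 0.15. Cdh22 turned to -1.46 with a pseudocount of 10. Using 1 set of size factors for all 10 libraries, chosen after seeing the data, gave 3131. The causes were not tested.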

Other observations

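Other genes of retinoid metabolism were read after the values of Cyp26a1 were seen. Of 17 genes 12 were tested, 5 with a higher and 2 with a lower effect in NSCs. The synthesis gene Aldh1a2 (1.62), the binding protein gene Crabp1 (1.05) and the receptor gene Rara (0.78) were among the higher ones by limma, and the uptake gene Stra6 (-2.63) and the retinaldehyde-forming Rdh10 (-0.78) lower. The calls of Aldh1a2, Crabp1, Rara, Stra6 and Rdh10 were each lost in at least 1 alternative, with highest adjusted p of 0.26, 0.153, 0.121, 0.123 and 0.128. Cyp26b1, which like Cyp26a1 degrades retinoic acid, had a difference of -1.59 that did not pass (adjusted p = 0.187).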
